A study of Mus musculus with 18 samples.

Results

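Chimeric reads that carry a microRNA (miRNA) of the miR-181 family mostly spread over a stretch of target RNA, but some pile up on 5 nt or less. The narrow clusters described here were chosen from the 3 wild-type libraries enriched for miR-181. Their reads named miR-181a-5p, b-5p, c-5p or d-5p were pooled, positions on the same strand at most 20 nt apart were joined, and clusters at most 5 nt wide with at least 10 reads were kept. This gave 329 narrow clusters among 6659 clusters of 10 or more reads, and among 246745 miR-181 clusters of any size. The other clusters of 10 or more reads were 5705 wide ones, of more than 20 nt, and 625 of intermediate width. Width and reads in the wild-type enriched libraries chose the narrow clusters, so all values from those libraries are given as a description, without a test.

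The study profiled total thymocytes of mice 6 weeks old by miR-eCLIP, in which Argonaute 2 (Ago2) is crosslinked to RNA by UV of 254 nm and each miRNA is ligated to the RNA beside it in the precipitate. Wild-type mice were C57BL/6. Knockout mice were B6.Mirc14tm1.1Ankr, labelled miR181a/b-1-KO, and lack Mir181a-1 and Mir181b-1; other loci that encode the family are not part of this deletion. Each genotype was assayed by an Ago2 immunoprecipitation (Ago2 IP) and by a further enrichment for miR-181, with 3 libraries in each of the 4 groups, and the 6 input samples of the series were not analysed here. The labels do not say that the libraries of a group came from separate animals, so p-values measure the spread between these libraries only, which may be technical.

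Library totals differed between groups by more than an order of magnitude. Wild-type enriched libraries held 194628 to 293149 chimeric reads, of which 98.8 to 99.2% named miR-181, and knockout enriched libraries held 6832 to 19264, of which 70.5 to 72.6% did. In the Ago2 IP, wild-type libraries held 43983 to 117849 reads with 30.1 to 32.3% named miR-181, and knockout libraries 52100 to 67639 with 1.32 to 1.44%. Wild-type Ago2 IP reads fell in 12 of 12 thymocyte marker genes, Cd4 and Cd8a among them, with 1035, 585 and 314 reads in the list. B cell markers had 3, 1 and 0 reads, myeloid markers 3, 1 and 1, markers of thymic epithelium none and globin genes 5, 7 and 2.

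Argonaute proteins hold a miRNA and use its seed, bases 2 to 8, to pair with target RNA, which then tends to be repressed or degraded. The miR-181 family is abundant in immature thymocytes and is known for tuning T cell receptor signalling. Its members share a seed and differ mainly in the middle and at the 3′ end, which is what lets a chimeric read be assigned to miR-181a or miR-181b. The mature sequences from RefSeq (GRCm38.p6), with the seed in capitals, show how little separates the names on which the purity values below rest.
miR-181a-5p: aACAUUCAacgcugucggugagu
miR-181b-5p: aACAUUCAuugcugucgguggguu
miR-181c-5p: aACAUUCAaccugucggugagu
miR-181d-5p: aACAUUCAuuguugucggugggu

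A genome sequence was not used here, so the letters under a pileup could be read only where it lies inside a RefSeq promoter window, which runs from 250 bases before to 50 after a gene's start. That was the case for 10 of the 329 narrow clusters (3.04%) and for 11 of the 5705 wide ones (0.193%). For 9 of the 10 a stretch of 30 letters on the strand of the reads could be read, from 20 letters before the pileup. A run of at least 8 letters equal to the 3′ end of a miR-181 name, written as DNA, occurred in 2 of these 9 stretches. It occurred in 0 of 11 stretches of wide clusters and in 0.113% of 65634 promoter stretches of that length, taken on both strands. The search was chosen after the sequences were seen, and a match of letters describes these windows only.

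The stretches with such a run belong to Crlf2, which encodes a chain of the receptor for thymic stromal lymphopoietin, and to Tcf7, which encodes the T cell transcription factor TCF1. At Crlf2 (GRCm38, chr5:109559024-109559053, minus strand) the run has 11 letters and ends 8 letters before the pileup. At Tcf7 (chr11:52282689-52282718, minus strand) it has 8 letters and ends 7 letters before. In the first 2 lines the first block of capitals marks the run and the last block the pileup. In the others, Smndc1 (a splicing factor gene, chr19:53390847-53390876, minus strand) and Smg9 (a gene of nonsense-mediated mRNA decay, chr7:24399575-24399604, plus strand), capitals mark the pileup alone.
Crlf2: aTGTCGGTGAGTcgccgcatCCGtttattg
Tcf7: gaggaCGGTGAGTttttgcgCggctgggga
Smndc1: aggctcgcgagtttacgccgCagggaaccg
Smg9: gctcagtctaacgcgcacgtTGGgttcgct

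All 30 reads at Crlf2 and all 36 at Tcf7 were named miR-181a, which ends in these letters, as does miR-181c, and neither had a miR-181 read in any Ago2 IP library. The pileup in the Smndc1 window lies at -222 from the gene's start, in no gene span. It had 154 reads, again all miR-181a, and its longest run was 4 letters. Smg9 had 13 reads named miR-181a and 17 named miR-181b. The hexamer GTGAGT, the last 6 letters of miR-181a-5p and c-5p as DNA, was in 2 of the 9 stretches, 0 of the 11 of wide clusters and 0.577% of promoter stretches, and lies within the longer runs. Of the letters that pair with the seed, GAATGT was in 0 of 9 and TGAATG in 1 of 9 (Pnpla6), against 1 of 11 stretches of wide clusters for each, and 0.533% and 0.548% of promoter stretches, on the strand of the reads.

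Most narrow clusters were a single position. Their widths of 1, 2, 3, 4 and 5 nt were held by 190, 50, 40, 26 and 23 clusters. Together they held 16948 reads, 2.31% of the miR-181 reads of the wild-type enriched libraries, with a median of 17 reads against 20 for wide clusters. The largest, in Zfp185, held 4665 reads, or 27.5% of all reads in narrow clusters, and the 10 largest held 48.0%. At the width limit, the clusters of 5 nt with most reads lay in Atf6 (78 reads), Eif4a2 (56 reads) and 2410006H16Rik (50 reads). The clusters of 6 nt with most reads, just outside it, lay in a span shared by Snhg1 and LOC115489083 (75 reads), outside any gene span on chromosome 8 (45 reads) and in Golga1 (41 reads). Members on either side of the limit thus held similar numbers of reads.

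**Figure D1:**
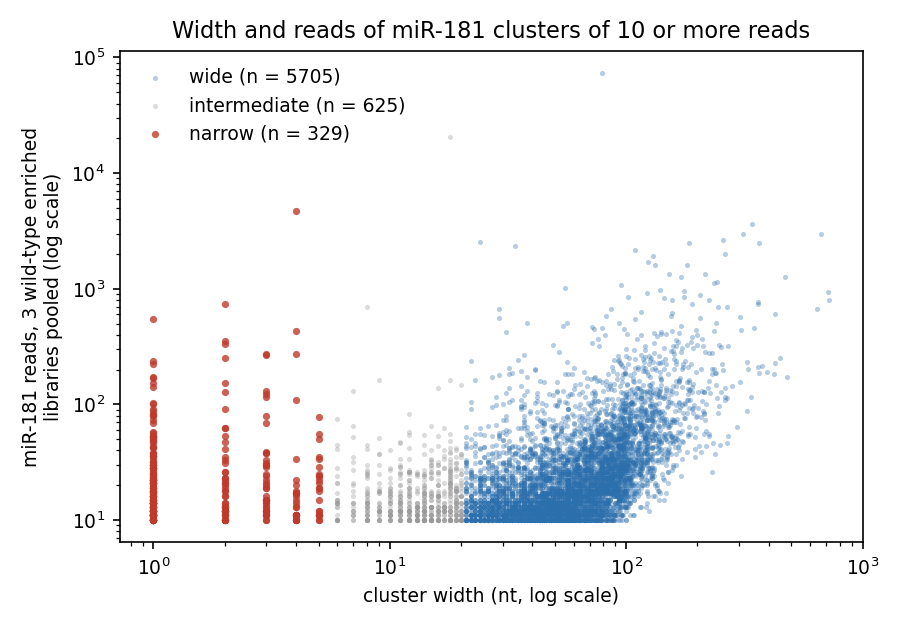
Width of each of the 6659 miR-181 clusters of 10 or more reads (horizontal axis, nt, log scale) against its reads pooled over the 3 wild-type enriched libraries (vertical axis, log scale), by width class. Reads rise with width among the 5705 wide clusters, whereas the 329 narrow ones run from 10 to 4665 reads at 5 nt or less.

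The largest narrow cluster lay at chrX:72994362-72994365, plus strand, within Zfp185, the gene of a LIM domain protein linked to the actin cytoskeleton. The wild-type enriched libraries had 2797, 1269 and 599 reads there, and the knockout enriched ones 0, 1 and 0. In the Ago2 IP, wild-type libraries had 16, 14 and 13 reads and each knockout library 0. In reads per 1000000 chimeric reads (RPM), the wild-type enriched group held 5875 ± 3318 and the Ago2 IP of that genotype 211 ± 80.3 (SD, n = 3 each). The enriched libraries lay between 3078 and 9541 RPM, so they differed among themselves by about as much as their mean. Of the 4665 reads, 4651 were named miR-181a, 5 miR-181b and 9 miR-181c. No other miRNA had a read at these positions in the Ago2 IP libraries, nor elsewhere along the same strand of the gene.

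The next cluster, at chr10:77042268-77042269, plus strand, lay in Slc19a1, which encodes the reduced folate carrier. Wild-type enriched libraries had 372, 233 and 132 reads there and knockout enriched ones 5, 8 and 4. Its 558 reads named miR-181a and 169 named miR-181b made it a cluster of mixed names. Unlike Zfp185 it kept a read in every knockout enriched library, at 470 ± 99.7 RPM against 955 ± 297 in the wild type (SD, n = 3 each). These values divide by library totals that were far lower in the knockout. In raw counts its knockout enriched reads were 2.31% of the wild-type ones.

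Psmc4, the gene of an ATPase subunit of the proteasome, held 260, 114 and 56 reads at chr7:28047471-28047474, minus strand, with 429 of 430 named miR-181a. It had 0 reads in all 3 knockout enriched libraries, where 3 reads in the smallest library would be 0.0439% of its reads. Cth, the gene of cystathionine gamma-lyase, held 186, 87 and 59 wild-type enriched reads, all miR-181a, and 3, 0 and 0 in the knockout.

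Pax2, a transcription factor gene of kidney and eye development, held 128, 97 and 49 reads, of which 264 of 274 were miR-181a. The knockout enriched libraries had 0, 5 and 3. The cluster in App, the amyloid precursor gene, held 157, 78 and 37 reads on the strand opposite to the gene, and 3, 3 and 2 in the knockout. In Fmn1, which encodes an actin-nucleating formin, miR-181b led with 163 reads over 99 of miR-181a. Its 111, 91 and 64 wild-type enriched reads stood beside 3, 3 and 2 in the knockout. App and Fmn1 thus differed in strand and in name and had the same number of knockout reads in each library.

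The remaining members of the 10 largest lay in no gene span. The cluster at chr12:79965790, plus strand, held 272, 180 and 101 wild-type enriched reads, all 553 named miR-181a, and 5, 1 and 2 in the knockout. That at chr15:22453232-22453233, plus strand, held 169, 103 and 80, with 2, 2 and 1 in the knockout. That at chr1:89941849-89941850, minus strand, held 109, 89 and 54, all miR-181a, with 1, 2 and 0 in the knockout. Library 1 was the highest and library 3 the lowest of the wild-type enriched libraries in read number for each of the 10.

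**Figure D2:**
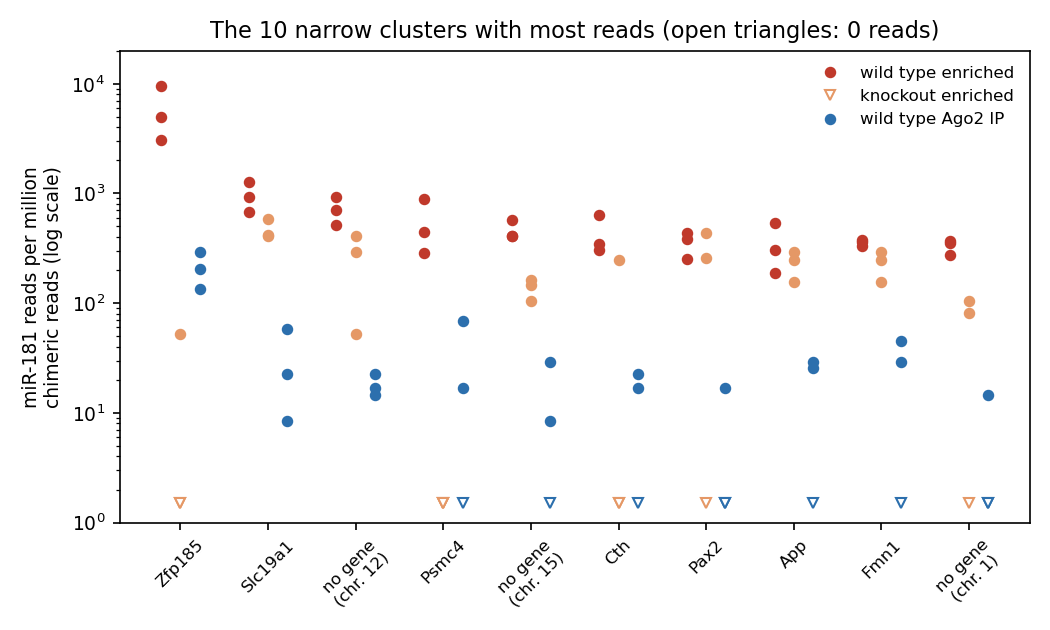
miR-181 reads in RPM (log scale) at the 10 narrow clusters with most reads, 1 point per library, for 3 wild-type enriched, 3 knockout enriched and 3 wild-type Ago2 IP libraries; open triangles stand for 0 reads. Zfp185 stands at 3078 to 9541 RPM in the wild-type enriched libraries with reads in 1 of 3 knockout enriched libraries, while Slc19a1 has reads in all of them.

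Narrow clusters named fewer family members than wide ones with the same number of reads. All reads carried a single miR-181 name in 176 of 329 narrow clusters (53.5%), of which 158 were all miR-181a, 17 all miR-181b and 1 neither. Among wide clusters 812 of 5705 (14.2%) had a single name. The gap was present in every class of equal reads: 57.8 against 23.1% at 10 to 19 reads, 51.6 against 8.27% at 20 to 49, 52.0 against 1.48% at 50 to 99 and 25.0 against 0.772% at 100 to 199. Above that, 33.3% of narrow and 0% of wide clusters had a single name, both at 200 to 499 reads (9 and 122 clusters) and from 500 reads (3 and 55 clusters). The median share of miR-181a was 97.4% in narrow and 88.9% in wide clusters, yet miR-181b led more often in narrow ones, in 46 (13.98%) against 496 (8.69%). Equal reads are not equal numbers of distinct lines, since the median share of repeats at 10 to 19 reads was 70% in narrow and 7.14% in wide clusters. With identical lines of a library counted once, the direction turned: 26 narrow clusters remained, 0 of them with a single name against 12.7% of wide ones, and the median miR-181a share was 54.5% against 86.2%. A single position then holds at most 1 line per name and library, so a cluster reaches 10 lines mainly through several names.

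**Figure D3:**
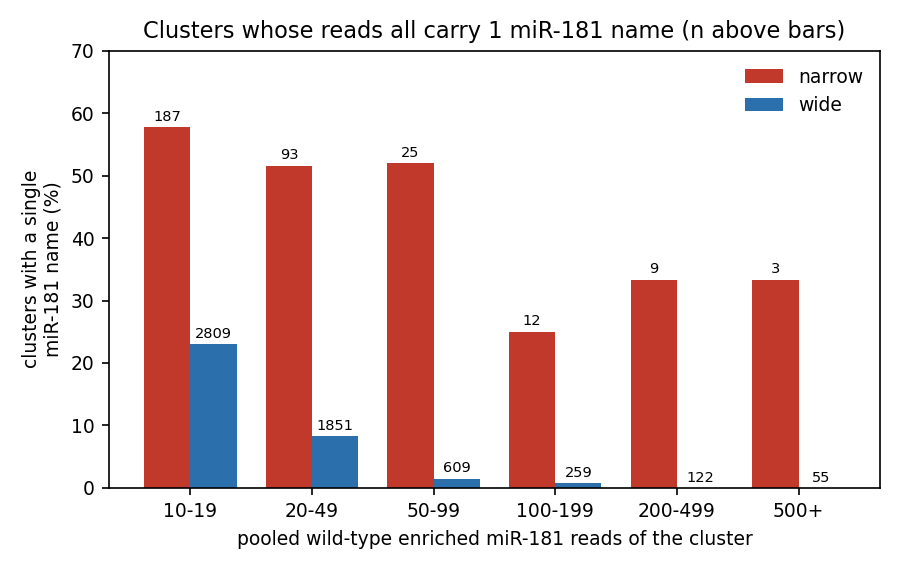
Share of clusters (vertical axis, %) in which all wild-type enriched reads carry a single miR-181 name, by class of pooled reads (horizontal axis), for narrow and wide clusters, with the number of clusters above each bar. Narrow bars run from 25.0 to 57.8%, wide bars fall from 23.1 to 0%.

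The narrow clusters with the most even names were small. The lowest shares of the leading name were 50% in Ttc37, a gene of the Ski complex of RNA decay, and in a cluster without a gene span on chromosome 1, both with 6 reads of miR-181a and 6 of miR-181b. Scn3a, a sodium channel gene, followed with 8 and 7 reads, Otud5, a deubiquitinase gene, with 15 and 18, and Adgrv1, an adhesion receptor gene, with 12 and 10. Reads at narrow clusters were mostly repeats of the same position and name within a library: 90.0% of reads, against 51.4% in wide clusters. A single position leaves little room for anything else, so this share moves with width.

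Nearly all narrow clusters were seen in each wild-type enriched library. Reads were present in all 3 libraries for 318 of 329 (96.7%), against 98.1% of wide clusters. When the rule was applied to 2 libraries and read in the one left out, 165 clusters met it without library 1, 245 without library 2 and 260 without library 3. Of these, 165, 241 and 253 had a read in the library left out, and 152, 224 and 243 were still at most 5 nt wide with it. The positions therefore recurred across libraries.

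The number of reads at those positions was less even. Library 1 held 52.3% of the reads in narrow clusters, library 2 29.2% and library 3 18.5%, against 39.5, 34.2 and 26.3% of all miR-181 reads. The share of library 1 was above 39.5% in 247 of the 329 clusters, a count that was not made for wide clusters. Without Zfp185 the split was 49.4, 30.02 and 20.6%, and in wide clusters, deleted hairpins left out, 39.8, 34.0 and 26.2%. In the clusters defined without library 1, that library held 7794 reads where 4678 would be taken from wide clusters of equal reads. Libraries 2 and 3, each left out in turn, held 4945 against 6023 and 2881 against 4529. What sets library 1 apart here was not tested.

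In the knockout enriched libraries, narrow clusters had fewer miR-181 reads than wide clusters of equal wild-type reads. The expected number was the sum over 6 classes of wild-type reads, each at the rate of its wide clusters, and the log2 of observed over expected reads (with 0.5 added to both) is called the narrow-to-wide index. Observed reads were 85, 171 and 64 where 247, 381 and 141 were expected. The index was -1.53, -1.16 and -1.14, or -1.28 ± 0.22 (SD, n = 3), below 0 in 3 of 3 libraries. Pooled, 320 reads stood against 770 expected, 2.41-fold fewer (exact 95% counting interval 2.16 to 2.69). Without Zfp185 the ratio was 1.74-fold, from 319 against 554. No test across genotypes was made in the enriched libraries, since the wild-type ones chose the clusters.

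Per wild-type read, the shortfall in the knockout was in the larger clusters. At 10 to 19 wild-type reads, narrow clusters had 36.0 knockout reads per 1000 wild-type reads and wide ones 35.9, and at 20 to 49 the rates were 35.7 and 39.3. From there they parted, with 16.4 against 42.7 at 50 to 99 reads, 27.5 against 41.6 at 100 to 199, 15.1 against 62.3 at 200 to 499 and 4.37 against 46.4 from 500. A knockout read was found at 134 of 329 narrow clusters (40.7%, exact interval 35.4 to 46.3%) and at 3080 of 5705 wide ones (54.0%). Clusters of intermediate width had one in 37.6% (33.8 to 41.5%), so a low share was not particular to narrow clusters. These 3 shares were not matched for reads, with medians of 17 in narrow, 14 in intermediate and 20 in wide clusters. In the small classes the share of clusters with a knockout read was 29.9 against 35.03% at 10 to 19 reads and 49.5 against 61.9% at 20 to 49. Without knockout library 2, the deepest of its group, the share of narrow clusters was 26.7%. Clusters redrawn without wild-type library 1 gave 57.6 against 65.3% of wide ones. With identical lines counted once the order turned, to 69.2% of the 26 narrow clusters left against 55.6% of wide ones. The knockout index of the 329 was then -1.36 ± 0.30 (SD, n = 3). In the same setting the wild-type enriched libraries stood lower still, at -2.47 ± 0.08 (SD, n = 3). Relative to them, the knockout thus showed no shortfall once repeats were removed. The top class holds 3 narrow clusters, Zfp185 among them.

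**Figure D4:**
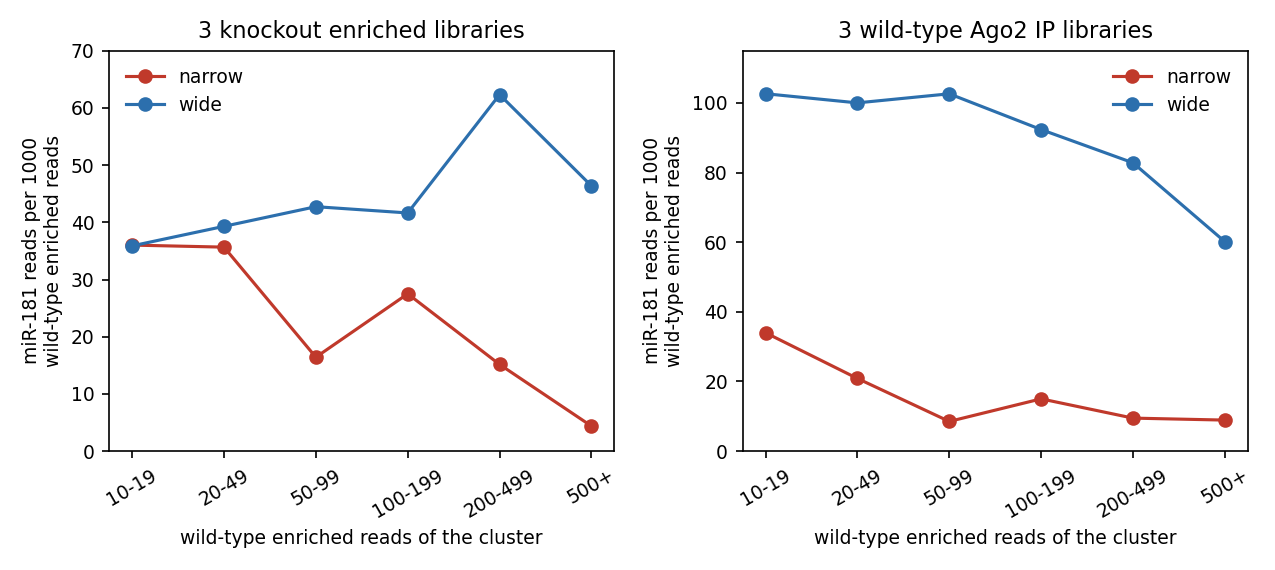
miR-181 reads per 1000 wild-type enriched reads (vertical axis) by class of wild-type enriched reads of the cluster (horizontal axis), in the 3 pooled knockout enriched libraries (left) and the 3 pooled wild-type Ago2 IP libraries (right), for narrow and wide clusters. In the knockout enriched libraries both classes start near 36 and part from 50 reads on; in the Ago2 IP narrow clusters are lower throughout, at 8.51 to 34.0 against 60.2 to 103.

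Beyond those already named, the narrow clusters with most knockout enriched reads were small or mixed in name. Kif5c, a neuronal kinesin gene, had 6, 7 and 1 knockout reads beside 70, 30 and 27 wild-type ones, and 83, 32 and 12 wild-type reads of miR-181a, b and c. Foxp2, a forkhead transcription factor gene, had 2, 4 and 2 beside 59, 36 and 22, with miR-181b leading at 71 of 117 reads. Ralgps1, which encodes an exchange factor for Ral GTPases, had 1, 3 and 2 beside 39, 35 and 29. A cluster outside any gene span on chromosome 7 had 2, 5 and 0 beside 4, 10 and 11, and one on chromosome 4 had 1, 6 and 0 beside 5, 6 and 1. The last 2 rest mainly on knockout library 2. A cluster on chromosome 12 tied with Ralgps1 for the tenth place, with 2, 4 and 0 knockout reads; it is the one led by miR-181c, which all its 10 wild-type reads named.

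Where the wild-type reads of a narrow cluster were all miR-181a or all miR-181b, most of the knockout enriched reads carried the same name. In narrow clusters whose wild-type reads were all miR-181a, 87 of 102 knockout enriched reads were also miR-181a (85.3%, exact interval 76.9 to 91.5%), at 81.3, 84.9 and 94.1% in the 3 libraries. In wide clusters of that kind 263 of 441 were (59.6%), at 54.2, 61.1 and 66.2%, so the ranges over libraries did not overlap. The narrow and wide sets were not matched for reads. Of clusters with a single name, 648 of 812 wide and 108 of 176 narrow ones had 10 to 19 wild-type reads. In narrow clusters of mixed names, which held most of the knockout reads, 70 of 204 were miR-181a (34.3%), against 52.5% in wide ones. The rest were 37 of miR-181b, 59 of miR-181c and 38 of miR-181d. In the wild-type enriched libraries, miR-181c and d made up only 0.425 and 0.230% of reads at narrow clusters. Narrow clusters that were all miR-181b had 8 knockout reads, 5 of miR-181b, 3 of miR-181d and 0 of miR-181a. Over all narrow clusters the knockout names were 49.1% miR-181a, 13.4% b, 24.4% c and 13.1% d, close to 52.6, 17.4, 20.4 and 9.62% in wide clusters.

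In the wild-type Ago2 IP, where reads were not enriched for miR-181, narrow clusters were represented less than wide ones in each class of reads. Observed miR-181 reads were 117, 68 and 70 where 715, 418 and 279 were expected, an index of -2.61, -2.61 and -1.98 (mean -2.40 ± 0.36, SD, n = 3), below 0 in 3 of 3 libraries. Pooled, 255 reads were 5.53-fold fewer than the 1411 expected (exact counting interval 4.89 to 6.28). The expected numbers scale with wild-type enriched reads, of which 90.0% in narrow and 51.4% in wide clusters were repeats. With identical lines counted once, the wild-type Ago2 IP index was -2.89 ± 0.37 (SD, n = 3). The wild-type enriched libraries then stood at -2.47 ± 0.08 (SD, n = 3), so the 2 kinds of library differed much less. The rates per 1000 wild-type enriched reads were 34.0 against 103 at 10 to 19 reads, 20.9 against 100.03 at 20 to 49 and 8.90 against 60.2 from 500 reads. No miR-181 read of the wild-type Ago2 IP fell on 230 of 329 narrow clusters (69.9%), against 20.1% of wide ones. The most-covered after Zfp185 was at Gm40554, with 9, 5 and 5 reads beside 18, 15 and 5 in the enriched libraries, and its gene was picked out after its values were seen.

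The knockout Ago2 IP held 2, 0 and 2 miR-181 reads at narrow clusters, against 17.6, 21.8 and 17.1 expected, 14.1-fold fewer when pooled (exact counting interval 5.52 to 51.9). As a share of all miR-181 reads, the wild-type Ago2 IP exceeded the knockout 2.24-fold, with an interval from counting alone of 0.863 to 8.27. The index was -2.86, -5.48 and -2.82, where the middle value belongs to the library with 0 reads. It was 1.32 lower in the knockout than in the wild type on the log2 scale (exact two-sided permutation test over libraries, p = 0.1, adjusted p = 0.1 over 2 tests, the smallest that 3 against 3 can give). Without that library the difference was -0.44, and with its reads set to a floor of 3 it was -0.38. Within the knockout, the index was 2.44 higher in the enriched libraries than in the Ago2 IP (exact permutation p = 0.1, adjusted p = 0.1), and 1.56 higher without the library at 0. At 4 reads in all, a genotype difference between narrow and wide clusters was not measurable at this depth.

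**Figure D5:**
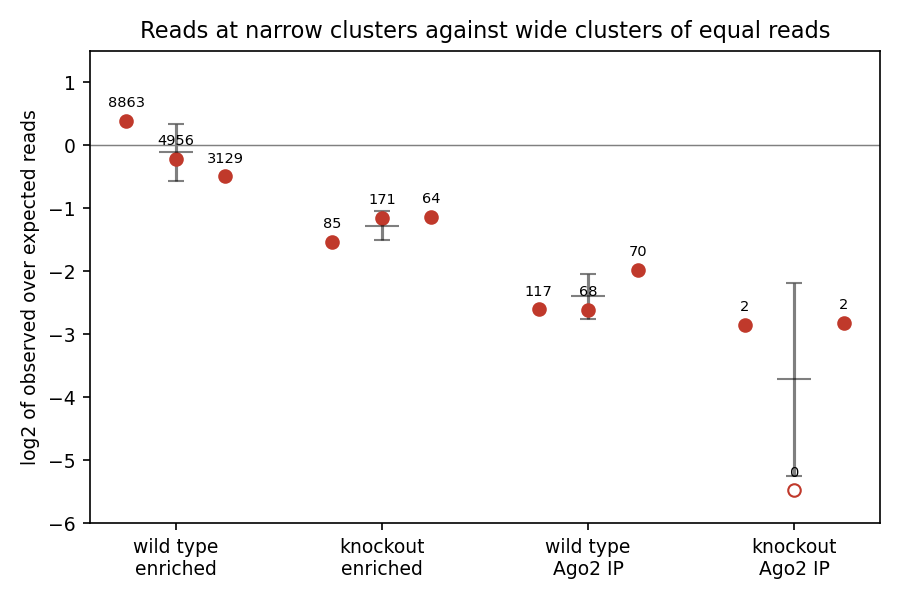
Narrow-to-wide index (log2 of observed over expected reads at narrow clusters, vertical axis) for each library of the 4 groups, with the observed reads above each point, group means as dashes and SD as bars (n = 3); the open point is a library with 0 reads. The wild-type enriched libraries, which chose the clusters, lie between -0.50 and 0.39, the knockout enriched between -1.53 and -1.14 and the wild-type Ago2 IP between -2.61 and -1.98.

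Single clusters were compared between genotypes in the Ago2 IP with edgeR's quasi-likelihood F test over all miR-181 clusters. Of 50 clusters with enough reads to be tested, 49 (98%) were lower in the knockout at an adjusted p of at most 0.05 and 1 (2%) was higher; 0 of these 50 were narrow, so 0 of 329 narrow clusters were tested or called, at an unadjusted p under 0.05 or with DESeq2. With TMM factors over miR-181 clusters, which centre out a loss they share, 10 were lower and 1 higher. With no filter on low counts 99 narrow clusters entered the fit and 2 were called lower. In that fit 626 of 4591 wide clusters and 640 of 20311 clusters of any width and size were lower. When any knockout library or wild-type library 1 was left out, 1 narrow cluster, Zfp185, entered the fit and was called lower; with 0 reads in each knockout library, it passed the count filter through the wild-type libraries alone.

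Reads of other miRNAs also fell on narrow clusters, and with them 5 entered a fit over all miRNA names, in which 91 of 153 clusters (59.5%) were called in either direction. The share of Ago2 IP reads with other names was 68.9% ± 1.1 in wild-type and 98.6% ± 0.06 in knockout libraries (SD, n = 3 each), which by itself is a shift of 0.52 on the log2 scale. TrnG, a mitochondrial tRNA gene, fell in the knockout: its reads of all names were 27, 26 and 18 in wild-type and 1, 1 and 1 in knockout libraries. Its log2 fold change was -4.09 (SE 0.51, edgeR adjusted p = 7.06e-07), lower in 3 of 3 knockout libraries, and the groups did not overlap. With 1 read in each knockout library, it passed the count filter through the wild type alone. Only 2 of these reads were of miR-181. For the 69 reads of other miRNAs against 3, the ratio per chimeric read was 17.98 (exact counting interval 5.90 to 89.3).

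Gpx1, the gene of glutathione peroxidase, rose at its narrow cluster (chr9:108339158, plus strand), from 18, 9 and 6 reads of all names to 18, 23 and 19. The log2 fold change was 1.21 (SE 0.30, edgeR adjusted p = 0.00156). Ino80c, of the INO80 chromatin remodelling complex, rose as well, from 57, 35 and 33 reads to 61, 87 and 42. Its log2 fold change was 0.92 (SE 0.22, edgeR adjusted p = 0.00117). Per chimeric read the genotypes did not overlap at either gene, with 130 to 153 RPM against 296 to 365 at Gpx1 and 484 to 750 against 806 to 1286 at Ino80c. Both changes stand beside the shift of 0.52 that all other names share. Of the Ago2 IP reads of other miRNAs, 97.5% at Ino80c and 87.8% at Gpx1 repeated a position and name within a library. Whether the changes hold with identical lines counted once was not tested. The unannotated clusters on chromosome 12 (0.61, adjusted p = 0.105) and chromosome X (0.21, adjusted p = 0.706) did not pass. With TMM factors, which centre all clusters, that on chromosome 12 passed too, at 0.70 (adjusted p = 0.0496), and no direction changed.

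The genes around narrow clusters differed from those of wide clusters. A protein-coding span held 186 narrow clusters (56.5%) against 94.7% of wide ones, and 116 (35.3%) lay in no gene span against 2.38%. The 213 clusters inside a span fell in 209 different gene names, so few genes held more than 1. Where the gene's strand was known, 49 clusters lay on the opposite strand and 95 on the gene's own, so that 34.0% were antisense against 1.14% of wide clusters. For 42 the strand of the gene was not known here.

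Sense members spanned genes with no other miRNA contacts and genes with many. Reads of other miRNAs in the Ago2 IP libraries, along the same strand of the gene and away from the cluster, had a median of 18 for narrow and 69 for wide clusters. Per 10 kb of gene, the medians were 4.36 and 11.3. None were found for 17 of 95 sense members (17.9%), against 0.347% of wide ones. Besides Zfp185, Pax2 and Crlf2 they included Hoxd10 and Fezf1, transcription factor genes of limb and brain development, and Amhr2, the receptor gene for anti-Mullerian hormone. At the other end, 30 sense members lay in genes with 50 or more such reads, such as Tcf7, Tnrc6a (a partner of Argonaute), Elf1 and Foxo1. The measure and these names were chosen after the values were seen.

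Gene groups known for abundant or structured RNA held few members. Genes that host small nucleolar RNAs in their introns held 9 narrow clusters (2.74%) against 44 wide ones (0.771%): Eif4a2, Gas5, Zfas1, Nop58, Ddx39b, Rpl7a, Snhg1 and Eef2, with 2. They held 10 to 56 reads, the most at Eif4a2, with 16, 14 and 8 in the wild-type enriched libraries at Gas5 and 6, 3 and 10 at Nop58, where library 1 did not lead. Ribosomal protein genes held 2 (Rpl17 and Rpl7a), or 0.608% against 0.403% of wide clusters. The mitochondrial genome held 2 (TrnF and TrnG), or 0.608% against 0.456%, and spans of small RNA genes 5, or 1.52% against 1.104%. The shares of ribosomal protein genes, the mitochondrial genome and small RNA spans were near those of wide clusters. That of genes hosting small nucleolar RNAs was higher, on 9 clusters. With so few clusters, the differences were not tested. No narrow cluster lay in a miRNA hairpin, in ribosomal RNA or in a gene of the list of published miR-181 targets. Of the wide clusters these held only 0.0701, 0.123 and 0.649%, so that counts of 0 among 329 are near the background.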

How the data were processed

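The deposited files list counts per position: a line stands for 1 chimeric read (a count of 1), with its 1-nt position, strand and miRNA name, in 12 libraries (24 files, 1 per strand), not scaled and not pooled by the authors as far as the files show. Which end of the read the position marks, and whether PCR duplicates were removed, is not given in the sources used here. Builds mm10 and GRCm38.p6 and Bowtie2 2.4.5, SAMtools 1.11, STAR 2.7.10, UMI-tools 1.1.1 and bedtools 2.30.0 are named, without roles, per the submitters' processing notes. Paired reads of 150 nt came from libraries made by a company, per the labels' protocols.

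Clusters and all shares were computed in Python 3.11.15 (pandas 2.3.3, scipy 1.17.1). Reads of other libraries were counted within 20 nt of a cluster's span. Gene names came from a RefSeq table of GRCm38.p6 gene spans, and strands from its promoter and hairpin tables; exon, intron and UTR classes were not analysed here. Clusters at the deleted hairpins were left out of expected numbers. edgeR 4.0.16 in R 4.3.3 tested 3 against 3 libraries, with total chimeric reads as library sizes, filterByExpr at a minimum count of 10 and Benjamini-Hochberg adjustment; it was tested on simulated data. DESeq2 1.42.0 was an alternative, as were other joining distances, widths, read minimums, bins, left-out libraries and identical lines counted once. Intervals are exact 95% ones and, like floors of 3 reads, hold for counting error alone, because identical reads may stem from the same molecule.

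Knockout Ago2 IP libraries 1 and 2 gave a chi-square p of 0.0527 over 368 clusters and were merged in an alternative. In the knockout enriched group, libraries 2 and 3 agreed within sampling noise over 120 clusters (chi-square p = 0.189), unlike the other pairs of that group. Counted as 1 sample, their group's index was -1.34 ± 0.27 (SD, n = 2).

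Named clusters were the 10 with most wild-type enriched and the 10 with most knockout enriched reads, the 5 of lowest leading-name share, 3 on either side of the width limit (ties by position), calls of the fit, and fixed gene groups and markers. The clusters and lists were chosen with earlier results of these data known. Genes named outside the rule are said to be.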

Additional observations from a re-analysis of the deposited data

Results flagged for a closer look

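Reads of miRNAs outside the miR-181 family entered no rule or index. In the Ago2 IP libraries 89 of the 329 narrow clusters (27.1%) had them, against 47.3% of wide and 21.8% of intermediate ones. Such reads came to 1062 at narrow clusters, where 3 reads is the limit that a count of 0 allows. Of these, 680 were named miR-142a-3p, and 18 clusters held 903 of them. The largest was at Ino80c, with 315 such reads, 313 of them miR-142a-3p, all on the single position of the pileup, beside 0 miR-181 reads in those libraries and 52 in the wild-type enriched ones.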

How the results depend on the processing

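The 2 index differences kept their sign in every alternative run. Requiring 20 reads left 142 narrow clusters, 141 of them in all 3 libraries, and counting identical lines once left 26 and 26, since a pileup of few positions then has few lines to count. Leaving out a wild-type enriched library left 165 to 260 clusters, 165 to 258 of them in every library used. The median miR-181a share was 94.8% with joining at 10 nt, 98.7% at 50 nt, 100% at a width of at most 3 nt, 92.9% at 10 nt, 97.2% from 20 reads, 54.5% with identical lines counted once (below the 86.2% of wide clusters) and 98.1 to 100% with a library left out. The share of narrow clusters with a knockout enriched read was 54.9% from 20 reads, 69.2% with identical lines once, and 26.7 to 57.6% with a library left out. The number of narrow clusters called lower in the knockout Ago2 IP was 2 of 99 with no filter, where 640 of 20311 clusters of any width were lower. It was 1 with all miRNA names, and 0 to 1 with a library left out. It was also 1 with all names and TMM factors and with knockout Ago2 IP libraries 1 and 2 as 1 sample, both chosen after seeing the data. With TMM factors over miR-181 clusters, 10 of 50 clusters of any width were lower and 1 higher.

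The index difference between genotypes in the Ago2 IP ran from -1.77 to -0.44 with a library left out. It was -0.73 (exact permutation p = 0.8) with identical lines counted once and -1.05 (p = 0.4) without Zfp185, an alternative chosen after seeing the data, like the floor. Within the knockout, the difference between enriched and Ago2 IP libraries ran from 1.56 to 2.89, and was 1.51 with the floor. With knockout Ago2 IP libraries 1 and 2 as 1 sample, the differences were -1.01 and 2.13 (p = 0.2 each, exact permutation test). Correlations between libraries of the same number were -0.11, 0.18 and 0.02 between genotypes in the Ago2 IP and 0.10, 0.17 and 0.03 between knockout enriched and Ago2 IP libraries, not over 0.1 in every pair, so the numbers were not taken to pair them. With the replicate number as a block the differences were again -1.32 and 2.44, with an exact p of 0.25 each, the smallest for 3 pairs, and 0 narrow clusters were called.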
